A study of Mus musculus with 23 samples.

Results

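Sialyltransferases are Golgi enzymes that transfer sialic acid from CMP-sialic acid to the ends of sugar chains on glycoproteins and glycolipids. Families are named by the linkage they make and the sugar they add to: ST3GAL and ST6GAL enzymes cap galactose, ST6GALNAC enzymes add to N-acetylgalactosamine, and ST8SIA enzymes add to another sialic acid. Sialylated chains are read by Siglec receptors on immune cells and by selectins on vessels, and altered sialylation is a known trait of carcinomas. The 10 genes described here were St6gal1, St3gal1, St3gal2, St3gal3, St3gal4, St3gal5, St3gal6, St6galnac2, St6galnac4 and St8sia4, of 47643 genes listed for these tumors. They were chosen by family name with measured values in view: St6gal1 for its difference between knockout and wildtype tumors and St3gal6 for its difference under γδTCR blockade. Those 2 contrasts are therefore described for all 10 genes with no p-value, counts of calls in them are given only beside their background and are no support. The antibody comparison was not among the contrasts named in the choice.

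Tumors came from mice carrying the PyMT transgene, in which the polyoma virus middle T oncoprotein drives mammary carcinoma, and 3′ mRNA sequencing was run on total RNA of each tumor. In the neutralization experiment, PyMT WT mice received 100 µg of anti-IL-38 (n = 6) or of a human IgG1 isotype control (n = 5) every week, starting once the first tumor measured 0.6 cm and lasting 5 weeks. In the γδTCR experiment, treatment began at 13 weeks of age with 500 µg of antibody followed by weekly injections of 200 µg, over 5 weeks. There, PyMT WT mice received IgG (n = 4), and PyMT mice lacking IL-38 (KO) received IgG (n = 4) or an antibody to the γδTCR (n = 4), which blocks the receptor of γδ T cells. The summed level of 5 γδ T cell markers was 1.62 to 5.84 CPM with that antibody and 1.39 to 2.64 CPM in KO tumors with IgG, with overlap. By flow cytometry, the paper reports fewer γδ T cells in WT and KO tumors given this antibody. These RNA sums were low throughout and do not measure cell numbers. All mice were female on a C57BL/6 background and carried PyMT, the KO was a germline deletion present in every cell, and a γδTCR-blocked group with intact IL-38 was not analysed here. Each of the 23 libraries came from a dissociated tumor of mixed cells, so fewer cells of a type and less RNA per cell cannot be told apart. Markers of luminal epithelium, the cell of origin of these tumors, summed to 1618 to 4052 CPM (reads on a gene scaled to a common total of reads on genes) over the 23 libraries. Il1f10, which encodes IL-38, had 0 reads in every library, which allows up to 3 reads in each, so it did not check the genotype labels.

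Libraries held 6273049 to 15879164 reads on genes. 5 libraries stood apart, the 4 with anti-γδTCR and replicate 4 of KO with IgG. They had 6273049 to 8794202 reads, against at least 10138353 in the other 18, and 11.3 to 20.1% of their reads fell on the ribosomal RNA-related gene Gm42418, against 2.62 to 5.70%. Processed pseudogenes took 1.31 to 1.98% of their reads and 0.0943 to 0.191% in the others. Replicate 3 with anti-γδTCR, whose column name carries the suffix rep and may stand for a repeat run, had the fewest reads and the highest share on Gm42418. The summed level of 7 macrophage markers was 655 to 1064 CPM in them and 1551 to 3141 CPM in the others, all 7 being detected. Fold changes of the 10 genes under blockade are therefore given with and without replicate 4 of KO with IgG. Without that replicate, every blockade library stood apart and no KO library with IgG did. Blockade and the library split cannot be told apart in that fit, so it is no cleaner measure of blockade.

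On the GRCm38 gene models, St6gal1 lies on chromosome 16 at chr16:23224740-23360350 on the plus strand and St3gal6 on the same chromosome at chr16:58468125-58524243 on the minus strand. Start regions were available from RefSeq for 7 of the 10 genes, as windows of 300 bases on GRCm38.p6 that hold 250 bases before and 50 after a transcript start. St3gal1, St3gal2 and St6galnac2 had no entry. The windows of St6gal1 and St3gal6 are printed because the choice named these genes and each has more than 1 annotated start. Reads of 3′ libraries, counted near the end of the transcript, cannot tell these starts apart. Capitals mark the letters of 4 promoter motifs, searched on both strands: the GC box GGGCGG (in 35.7% of all 32851 windows), CCAAT (37.4%), TATAAA (13.6%) and the AP-1 motif TGANTCA (7.8%). A match is a description of the letters and no evidence that a factor binds.
St6gal1, first start (chr16:23224490-23224789, plus strand): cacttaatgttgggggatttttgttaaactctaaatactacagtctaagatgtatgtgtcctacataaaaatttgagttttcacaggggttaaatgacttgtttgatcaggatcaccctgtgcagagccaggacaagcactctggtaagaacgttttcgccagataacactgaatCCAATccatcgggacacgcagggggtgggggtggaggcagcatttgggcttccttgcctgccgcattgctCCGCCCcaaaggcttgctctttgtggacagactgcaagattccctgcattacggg
St6gal1, second start (chr16:23225771-23226070, plus strand): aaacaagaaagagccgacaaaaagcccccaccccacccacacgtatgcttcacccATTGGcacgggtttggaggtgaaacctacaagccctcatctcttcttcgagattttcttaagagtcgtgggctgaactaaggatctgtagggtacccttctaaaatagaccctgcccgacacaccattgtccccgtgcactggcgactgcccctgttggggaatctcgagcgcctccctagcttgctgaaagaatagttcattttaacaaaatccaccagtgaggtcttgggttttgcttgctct
St6gal1, the third start (chr16:23290220-23290519, plus strand): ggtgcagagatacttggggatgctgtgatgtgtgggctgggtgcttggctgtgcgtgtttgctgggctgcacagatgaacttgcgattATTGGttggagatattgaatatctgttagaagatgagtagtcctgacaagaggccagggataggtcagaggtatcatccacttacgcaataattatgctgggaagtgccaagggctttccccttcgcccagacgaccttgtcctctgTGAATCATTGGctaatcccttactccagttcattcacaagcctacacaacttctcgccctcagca
St3gal6, upstream start (chr16:58524204-58524503, minus strand): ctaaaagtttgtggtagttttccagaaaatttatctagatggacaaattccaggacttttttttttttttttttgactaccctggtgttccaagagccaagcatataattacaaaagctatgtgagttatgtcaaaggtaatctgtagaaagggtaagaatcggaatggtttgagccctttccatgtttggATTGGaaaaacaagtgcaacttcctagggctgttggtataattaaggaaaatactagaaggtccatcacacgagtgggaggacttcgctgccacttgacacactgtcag
St3gal6, downstream start (chr16:58523377-58523676, minus strand): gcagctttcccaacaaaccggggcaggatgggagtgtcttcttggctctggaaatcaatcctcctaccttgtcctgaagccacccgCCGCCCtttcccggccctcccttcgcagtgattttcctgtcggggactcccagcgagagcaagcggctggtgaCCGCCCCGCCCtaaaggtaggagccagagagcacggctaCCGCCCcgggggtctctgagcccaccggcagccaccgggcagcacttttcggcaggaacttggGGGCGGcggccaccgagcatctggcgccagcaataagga

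The 3 St6gal1 windows span 65730 bases from the first to the last and differ in their letters. The first holds 1 GC box and 1 CCAAT, the second 1 CCAAT, and the third 2 CCAAT, of which 1 overlaps an AP-1 motif by 1 base; none holds TATAAA. Their G and C content was 48.0%, 50.7% and 49.7%, close to the median of 52.7% over all windows. The 2 St3gal6 windows are unlike each other: the upstream one is 38.7% G and C with 1 CCAAT and no GC box, and the downstream one 64.7% with 5 GC boxes, 2 of which overlap by 1 base, and no CCAAT. Windows of the other 5 genes with an entry were 61.3% to 74% G and C and each held at least 1 GC box.

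All 10 genes had reads in every library, and all 10 passed the filter of a mean of 5 normalized counts in each comparison. St6galnac4, which adds sialic acid to the sialyl-T antigen of mucin-type O-glycans, and St3gal5, which makes the ganglioside GM3, had the most reads, with means of 90.3 and 75 CPM over the 23 libraries. St3gal1, St8sia4, St6galnac2, St3gal2 and St6gal1 followed at 36, 33.8, 32.4, 25.5 and 21.2 CPM. St3gal6, St3gal4 and St3gal3 were lowest, at 5.82, 5.46 and 1.14 CPM, and St3gal3 rested on only 2 to 35 reads per library. The libraries count 1 read near the end of each transcript, so CPM is not divided by length, and how well a 3′ end was captured can differ between genes. St6galnac2 varied most across libraries, 15-fold from lowest to highest, and St6galnac4 least, 2.63-fold.

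**Figure D1:**
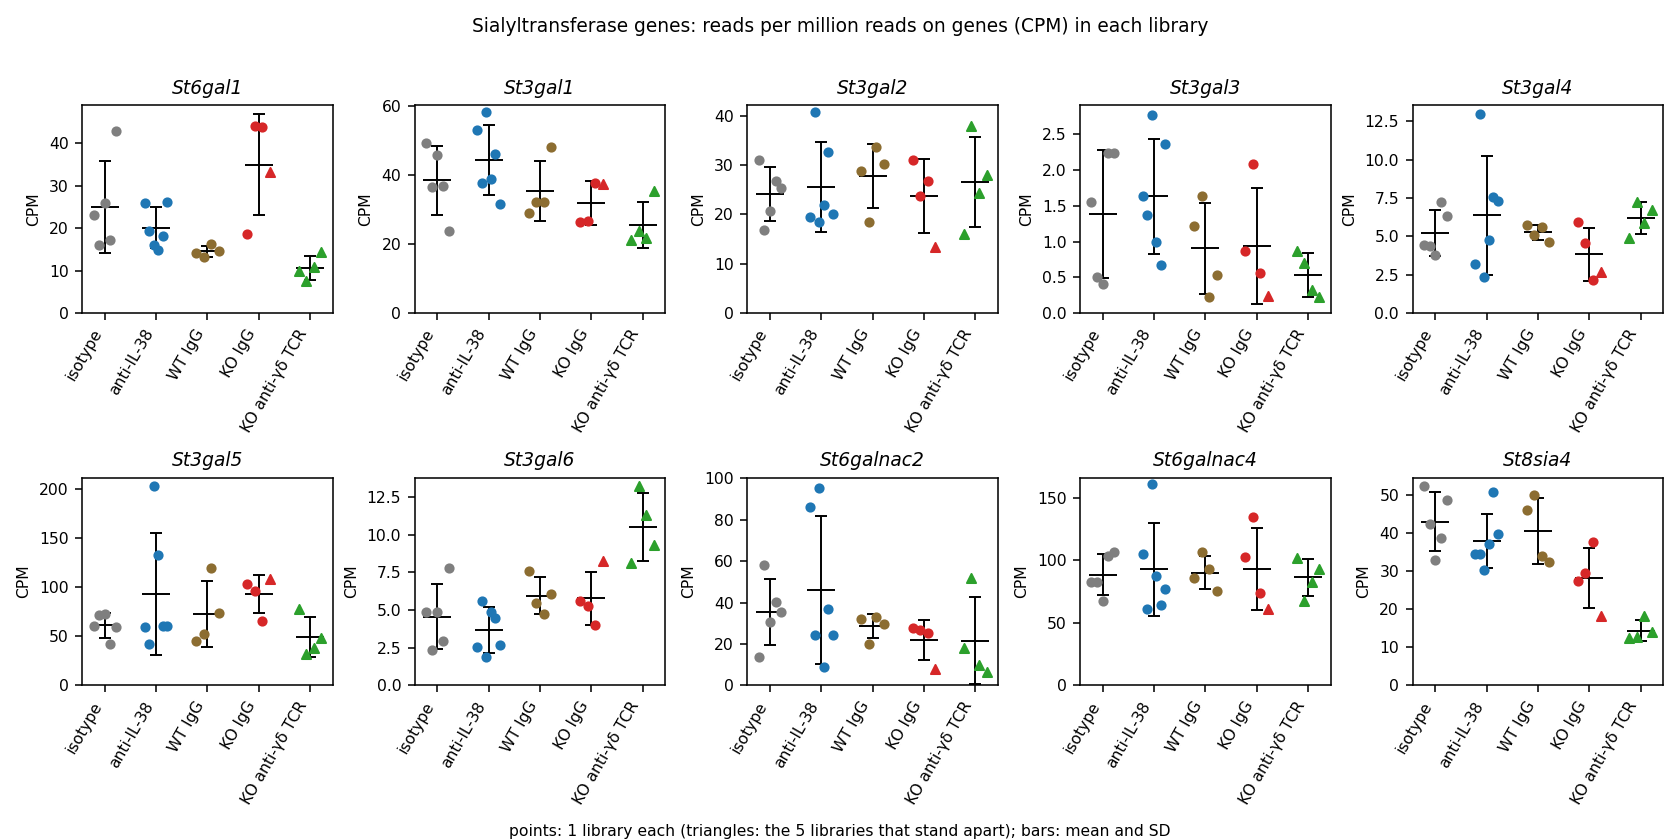
Levels of the 10 genes (CPM, linear axes from 0) in each of the 23 libraries by group, with the group mean and SD; triangles mark the 5 libraries that stood apart. St6gal1 was higher in every KO tumor with IgG than in any WT tumor with IgG and fell below 18.7 CPM, the lowest KO value, in every tumor with anti-γδTCR, and St3gal6 was highest in the anti-γδTCR group.

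St6gal1 makes the alpha-2,6 sialic acid cap on N-glycans, the ligand of the B cell receptor CD22, and it is the only enzyme of its subfamily among the 10 genes. In WT tumors with IgG it was at 14.1, 13.3, 16.2 and 14.7 CPM. In KO tumors with IgG it was at 18.7, 44.1, 43.8 and 33.3 CPM. All 4 KO values lay above all 4 WT values, and replicate 1 was the KO tumor nearest to them. With anti-γδTCR the KO tumors were at 9.99, 7.59, 10.8 and 14.4 CPM, each below every KO tumor with IgG. Isotype tumors ran from 16 to 42.9 with a median of 23.1 (23.1, 16, 26, 17.2 and 42.9), and anti-IL-38 tumors from 14.9 to 26.1 with a median of 18.7. Group means fell in the order KO with IgG (35 ± 12 CPM, SD, n = 4), isotype (25 ± 10.8, n = 5), anti-IL-38 (20.1 ± 4.83, n = 6), WT with IgG (14.6 ± 1.24, n = 4) and KO with anti-γδTCR (10.7 ± 2.84, n = 4), and each pair of neighbours in this order overlapped. The isotype group, made up of WT tumors like the WT IgG group, thus held values as high as the KO group: its replicate 5 reached 42.9 CPM.

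St6gal1 had a log2 fold change of 1.21 ± 0.25 (SE) in KO against WT tumors, with mean normalized counts, which the authors scaled between libraries, of 417 ± 141 against 170.1 ± 13.3 (SD, n = 4 each). It was 1.20 ± 0.27 (SE) without replicate 4 of KO with IgG. Under γδTCR blockade its log2 fold change was -1.48 ± 0.30 (SE), from 319.8 ± 109.8 to 110.5 ± 28 normalized counts, and -1.46 ± 0.33 (SE) without that replicate. Both contrasts share the 4 KO tumors with IgG, so the rise and the fall are not independent of each other. Replicate 4 of KO with IgG, which resembled the blockade libraries in depth and macrophage markers, had a St6gal1 level of 33.3 CPM, inside the range of the other KO tumors with IgG and above the highest blockade tumor at 14.4 CPM. This is 1 tumor, and the part of depth and macrophage content in the St6gal1 values was not tested. St6gal1 was 1 of 10 genes with non-overlapping groups between KO and WT, where 3.66% of 16563 genes lay higher and 3.41% lower in every KO tumor. Without replicate 4 it was again the only one of the 10, where 7.43% of genes lay higher and 5.45% lower. limma called none of the 10 at an adjusted p of 0.05 against 0.00604% of all genes, and DESeq2 on the whole reads called 1, St6gal1, against 1.84%. These shares are the background of the contrast that chose the gene, and nothing is read from them.

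Among reads of the enzymes that cap galactose of N-glycan antennae, the balance of St6gal1 against St3gal3, St3gal4 and St3gal6 together shifted with these groups. WT tumors with IgG had 0.970 to 1.53 St6gal1 reads per read of the other 3 genes (mean 1.22 ± 0.246, SD). KO tumors with IgG had 1.5 to 6.50 St6gal1 reads per read of the other 3 genes (mean 3.68 ± 2.10, SD). KO tumors with anti-γδTCR had 0.359 to 0.888 St6gal1 reads per read of the other 3 genes (mean 0.647 ± 0.222, SD). The isotype group ran from 1.39 to 2.88 and the anti-IL-38 group from 0.964 to 3.51, both overlapping WT and KO. The KO group with IgG spread widely and overlapped WT, while the lowest KO ratio still exceeded the highest ratio under blockade. The ratio holds St6gal1 and St3gal6, which these contrasts chose, so nothing is read from its shift.

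Levels of St6gal1 were set beside markers of cells that could carry it. 6 B cell markers summed to 0.395 to 7.77 CPM in the 23 libraries, low throughout, and their sum was highest in replicate 4 of KO with IgG. The B cell sum was 3.62 to 5.49 CPM with anti-γδTCR and 1.39 to 2.33 CPM in the other 3 KO tumors with IgG. In isotype tumors it was 1.09 to 3.14 CPM. Cd22 was at 1.17 to 3.64 CPM with anti-γδTCR and at 15.9 to 25.9 CPM in isotype tumors, so it did not follow that sum. 6 proliferation markers summed to 295 to 475 CPM with anti-γδTCR and to 527 to 716 CPM in KO tumors with IgG, without overlap, in the same direction as St6gal1. The highest KO sum was that of replicate 4. Gm42418 reads, counted in the denominator, were 13.2% in the blockade tumor at 475 CPM and 2.82% in the KO tumor at 527 CPM. Without those reads the separation of the sums does not hold. WT tumors with IgG had 564 to 600.2 CPM of these markers, within the KO range. The isotype tumor with the highest St6gal1, replicate 5, also had the highest proliferation sum of all libraries, 1521 CPM. The part of proliferating cells in the St6gal1 values was not tested. The genes whose pattern over 23 libraries was most like that of St6gal1, by Pearson r of log2(CPM + 1) among 11323 genes with a mean of at least 5 CPM, were Shcbp1 (r = 0.83, 0.72 after removing group means), Shmt1 (r = 0.82, 0.66 after removing group means), Pola2 (r = 0.80, 0.61 after removing group means), Hnrnpab (r = 0.80, 0.73 after removing group means) and Car9 (0.80, 0.68). Shcbp1 acts at the midbody in cell division, Pola2 is a subunit of the DNA polymerase that starts replication, and Car9 is a carbonic anhydrase known to be induced in hypoxia. These r values are the highest of many and are given as a description.

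St3gal6 adds alpha-2,3 sialic acid to galactose on N-acetyllactosamine chains, a step toward the sialyl Lewis x ligands of selectins. With anti-γδTCR it was at 8.12, 13.2, 11.3 and 9.32 CPM, and in KO tumors with IgG at 5.63, 5.25, 4.03 and 8.24 CPM. WT tumors with IgG were at 7.57, 5.46, 4.76 and 6.06 CPM. On the CPM scale replicate 4 of KO with IgG reached into the blockade range, and the other 3 lay below it. On the authors' normalized counts the groups did not overlap, with 78.4 in that replicate against 85 in the lowest blockade tumor. The isotype group ran from 2.38 to 7.82 with a median of 4.85 and the anti-IL-38 group from 1.90 to 5.63 with a median of 3.58, the lowest mean of the 5 groups (3.68 ± 1.51 CPM, SD, n = 6). The blockade mean was 10.5 ± 2.24 CPM (SD, n = 4), and the other 4 group means, from 3.68 to 5.96 CPM, overlapped with their neighbours in order.

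The log2 fold change of St3gal6 under blockade was 1.04 ± 0.28 (SE), from 53 ± 17.7 to 108 ± 23.9 normalized counts (SD, n = 4 each), and 1.25 ± 0.26 (SE) without replicate 4 of KO with IgG. Between KO and WT tumors it was -0.04 ± 0.27 (SE), and -0.24 ± 0.26 (SE) without that replicate. Its level followed the split of the libraries: 8.12 to 13.2 CPM in the 5 that stood apart and 1.90 to 7.82 CPM in the other 18, with no overlap. Leaving out the reads on Gm42418 did not join them (9.29 against at most 8.23 CPM), an alternative chosen after seeing the data. The share of all genes that split the libraries in this way was not counted, so nothing is read from the split. Without replicate 3 with anti-γδTCR the log2 fold changes under blockade were 0.95 ± 0.30 (SE) for St3gal6 and -1.55 ± 0.34 (SE) for St6gal1. Depth, Gm42418, processed pseudogene and macrophage marker levels moved with St3gal6, and their part in its values was not tested. Most like St3gal6 over the 23 libraries were Lonrf1 (r = 0.87, 0.66 after removing group means), Spats2l (r = 0.86, 0.67 after removing group means), Xrn2 (r = 0.86, 0.63 after removing group means), Rars2 (r = 0.86, 0.60 after removing group means) and Flna (0.85, 0.64), again given as a description. Of the 10 genes, St6gal1 lay lower and St3gal6 higher in every blockade tumor, where 4.98% and 4.57% of 16481 genes did so. Without replicate 4 of KO with IgG, St8sia4 joined St6gal1 among the lower ones, where 10.8% of genes lay lower and 14.3% higher. limma called 0 of the 10 at an adjusted p of 0.05, against 0% of all genes, and 3570 genes passed an unadjusted p of 0.05. Without replicate 4 of KO with IgG it called 3, St6gal1 and St8sia4 lower and St3gal6 higher, against 14.3% of genes, and DESeq2 with all libraries called St6gal1 and St3gal6, against 6.29%. The contrast chose these genes, so nothing is read from the counts.

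St3gal4 and St3gal3 act on the same kind of chain as St3gal6. St3gal4 was at 5.74, 5.07, 5.61 and 4.65 CPM in WT tumors with IgG, at 5.94, 4.55, 2.14 and 2.67 CPM in KO tumors with IgG and at 4.87, 7.24, 5.90 and 6.71 CPM with anti-γδTCR. KO replicates 3 and 4 were the low ones, and KO replicate 1 lay inside the blockade range. Its log2 fold change was -0.54 ± 0.32 (SE) for KO against WT and 0.95 ± 0.33 (SE) under blockade, or 0.84 ± 0.35 (SE) without replicate 4. St3gal4 in anti-IL-38 tumors spread from 2.38 to 13 with a median of 6.04, wider than the isotype range of 3.76 to 7.25. St3gal3 ranged from 0.227 to 2.77 CPM with overlap between neighbouring groups, and its log2 fold changes of 0.02 ± 0.72 (SE) and -0.38 ± 0.67 (SE) were smaller than their errors, while the latter became -0.80 ± 0.60 (SE) without replicate 4.

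**Figure D2:**
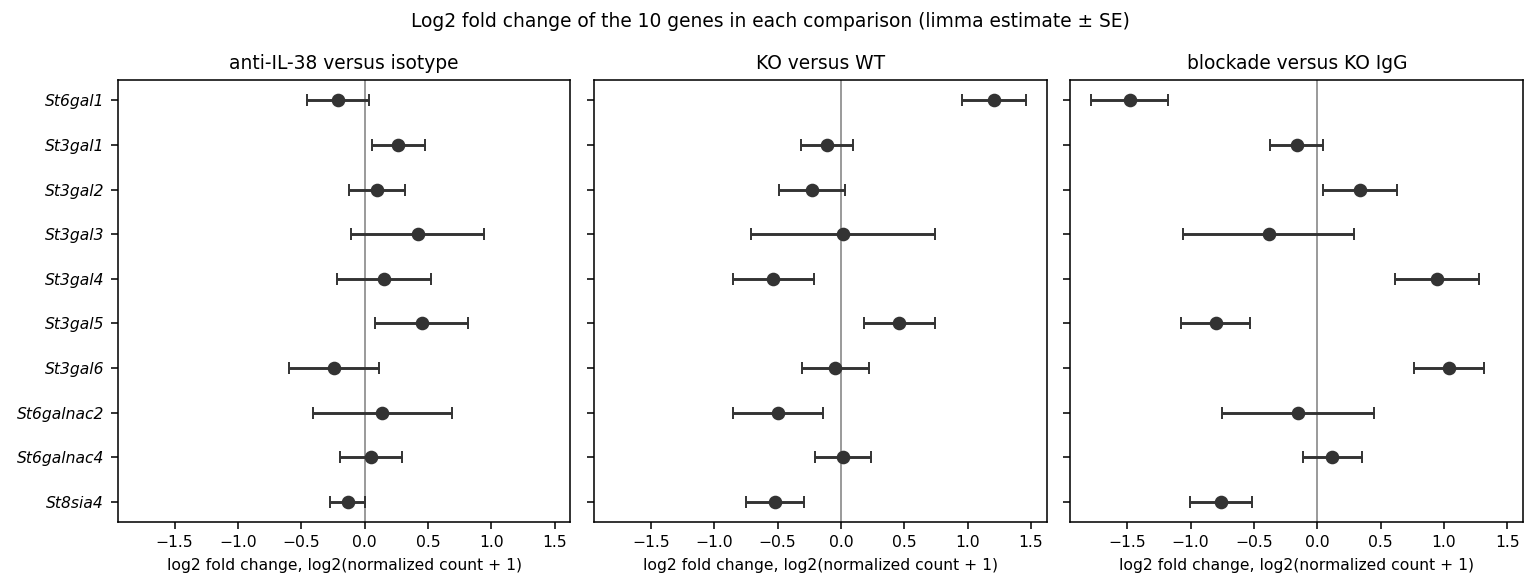
Log2 fold change of the 10 genes (limma estimate on log2(normalized count + 1), bars ± SE) for anti-IL-38 against isotype, KO against WT and γδTCR blockade against KO with IgG. St6gal1 stood at 1.21 and -1.48 in the last 2 panels, which share the KO tumors with IgG, and at -0.21 in the first.

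St3gal1 and St3gal2 cap the core 1 disaccharide of O-glycans, and St3gal2 also acts on gangliosides. St3gal1 was at 29, 32.1, 32.1 and 48 CPM in WT tumors with IgG, 26.3, 26.5, 37.7 and 37.2 CPM in KO tumors with IgG and 21.1, 23.7, 21.7 and 35.3 CPM with anti-γδTCR. The 3 groups overlapped, and the WT value of replicate 4 stood well above its group. The log2 fold changes of St3gal1 were -0.11 ± 0.20 (SE) for KO against WT and -0.16 ± 0.21 (SE) under blockade, or -0.06 ± 0.21 (SE) without replicate 4 of KO. St3gal2 ranged over 18.4 to 33.6 CPM in WT, 13.3 to 31 CPM in KO and 16 to 38 CPM in blockade tumors, with replicate 4 of KO lowest of all 23 libraries. Its log2 fold change under blockade was 0.34 ± 0.29 (SE), and 0.11 ± 0.25 (SE) without that replicate. Between KO and WT tumors, St3gal2 had a log2 fold change of -0.23 ± 0.26 (SE), and 0.01 ± 0.20 (SE) without it.

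St6galnac2 and St6galnac4 add sialic acid to the N-acetylgalactosamine of O-glycans, St6galnac2 on the T antigen and St6galnac4 on its sialylated form. St6galnac2 was at 27.9, 27, 25.1 and 7.89 CPM in KO tumors with IgG, where replicate 4 lay far under the other 3. It was at 18.2, 52, 9.88 and 6.37 CPM with anti-γδTCR, where replicate 2 lay far above. In anti-IL-38 tumors it was at 86.3, 24.5, 95.4, 9.03, 37.1 and 24.2 CPM, replicates 1 and 3 being the high ones, and WT tumors with IgG held to 20.2 to 33.3 CPM. Its log2 fold change was -0.50 ± 0.35 (SE) for KO against WT and -0.07 ± 0.18 (SE) without replicate 4 of KO. Under blockade it was -0.15 ± 0.60 (SE), and -0.57 ± 0.55 (SE) without it, each about as large as its SE or smaller. St6galnac4 was the steadiest of the 10, with group means from 86.3 to 93.1 CPM and its highest values were 160.5 CPM in replicate 3 with anti-IL-38 and 135 CPM in replicate 2 of KO with IgG. The log2 fold changes of St6galnac4 were 0.02 ± 0.22 (SE) and 0.12 ± 0.23 (SE) in the same contrasts, the latter -0.04 ± 0.21 (SE) without replicate 4.

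St3gal5 makes GM3, the parent of most gangliosides, from lactosylceramide. It was at 45.3, 52, 119 and 73.8 CPM in WT and at 103, 96.3, 65.2 and 108 CPM in KO tumors with IgG, which overlapped. With anti-γδTCR it was at 77.8, 32.4, 38.4 and 48 CPM, where 3 of 4 tumors lay under every KO tumor with IgG and replicate 1 did not. The log2 fold changes of St3gal5 were 0.46 ± 0.28 (SE) for KO against WT and -0.80 ± 0.27 (SE) under blockade, or -0.70 ± 0.28 (SE) without replicate 4 of KO, the KO tumor with the highest St3gal5 level. Anti-IL-38 tumors were at 59.8, 42.6, 202, 133, 60.3 and 60.3 CPM, 2 of them above every isotype tumor (41.7 to 72.6 CPM).

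St8sia4 is a polysialyltransferase, which builds polysialic acid on NCAM in nerve tissue and on proteins of myeloid cells. It was at 46.2, 50.1, 34.2 and 32.5 CPM in WT tumors with IgG, 27.6, 29.6, 37.7 and 18.2 CPM in KO tumors with IgG and 12.6, 12.8, 18.3 and 14 CPM with anti-γδTCR. Isotype and anti-IL-38 tumors ran from 33.1 to 52.6 and from 30.5 to 50.9 CPM. St8sia4 had a log2 fold change of -0.76 ± 0.24 (SE) under blockade, and -0.93 ± 0.23 (SE) without replicate 4 of KO with IgG, when its groups no longer overlapped. In KO against WT tumors it was -0.52 ± 0.23 (SE), and -0.34 ± 0.20 (SE) without that replicate. St8sia4 followed the split of the libraries as St3gal6 did, in the opposite direction: 12.6 to 18.3 CPM in the 5 that stood apart and 27.6 to 52.6 CPM in the other 18. Here too the share of all genes that split the libraries was not counted. Macrophage markers were split alike, with a sum of 853 CPM in replicate 4 of KO with IgG and 655 to 1064 CPM with anti-γδTCR. The marker sum was 1930 to 2514 CPM in WT tumors with IgG and 1551 to 2095 CPM in the other 3 KO tumors with IgG. The processed pseudogene share also moved with St8sia4, and the part of this and of macrophage content in its values was not tested.

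**Figure D3:**
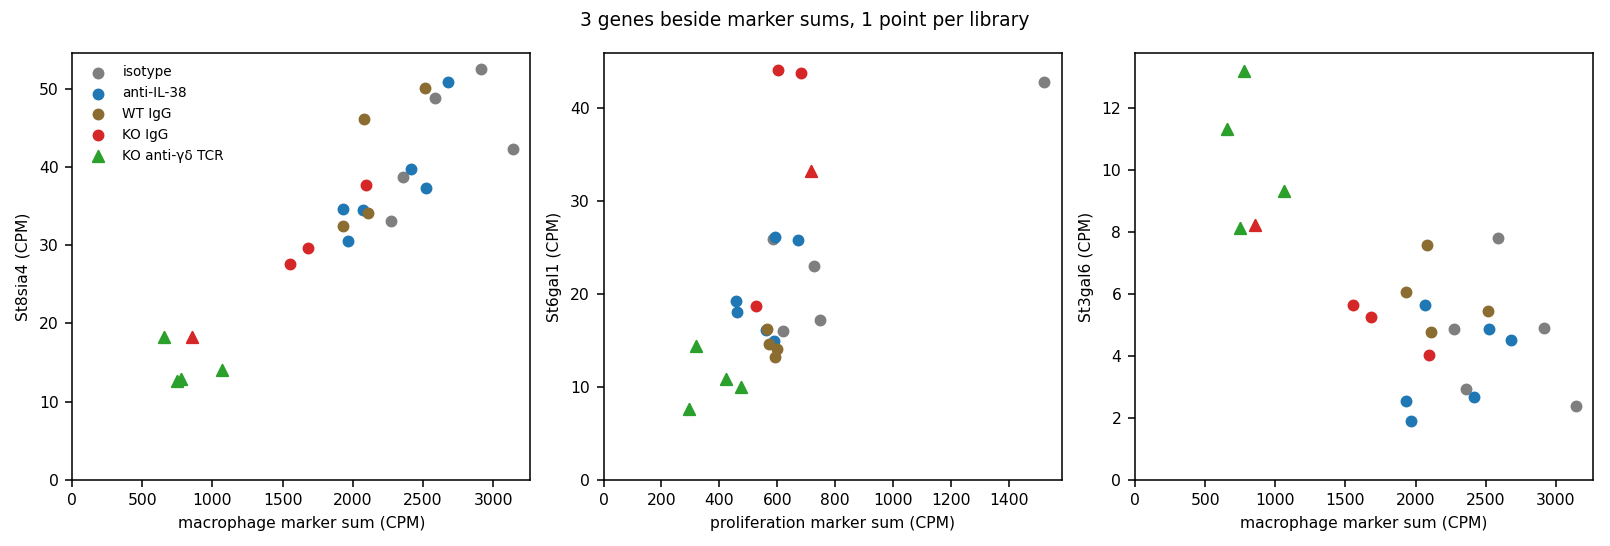
St8sia4 and St3gal6 beside the sum of 7 macrophage markers and St6gal1 beside the sum of 6 proliferation markers, in CPM on linear axes, 1 point per library coloured by group; triangles mark the 5 libraries that stood apart. The triangles sit below 1551 CPM of macrophage markers, with St8sia4 at 12.6 to 18.3 CPM and St3gal6 at 8.12 to 13.2 CPM, while St6gal1 of the KO triangle is at 33.3 CPM.

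The summed level of the 10 genes was 224 to 271 CPM with anti-γδTCR and 290.2 to 394 CPM in KO tumors with IgG, without overlap, with the Gm42418 reads counted in the denominator. As a share of that sum, which does not depend on the denominator, St6gal1 was 4.35 to 4.76% in WT, 5.35 to 13.8% in KO and 2.97 to 5.66% in blockade tumors. By share, KO replicate 1 fell inside the blockade range, and the other 3 lay above it. St3gal6 made up 2.99 to 5.17% of the sum with anti-γδTCR and at most 2.84% in KO tumors with IgG, so that these groups did not overlap. On the CPM scale they did, and the sum that divides each share was lower under blockade. That contrast chose St3gal6, so nothing is read from the separation by share. St6galnac4 and St3gal5 together gave the largest shares, with group means of 24.5 to 34.4% and 18.8 to 27.9%.

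**Figure D4:**
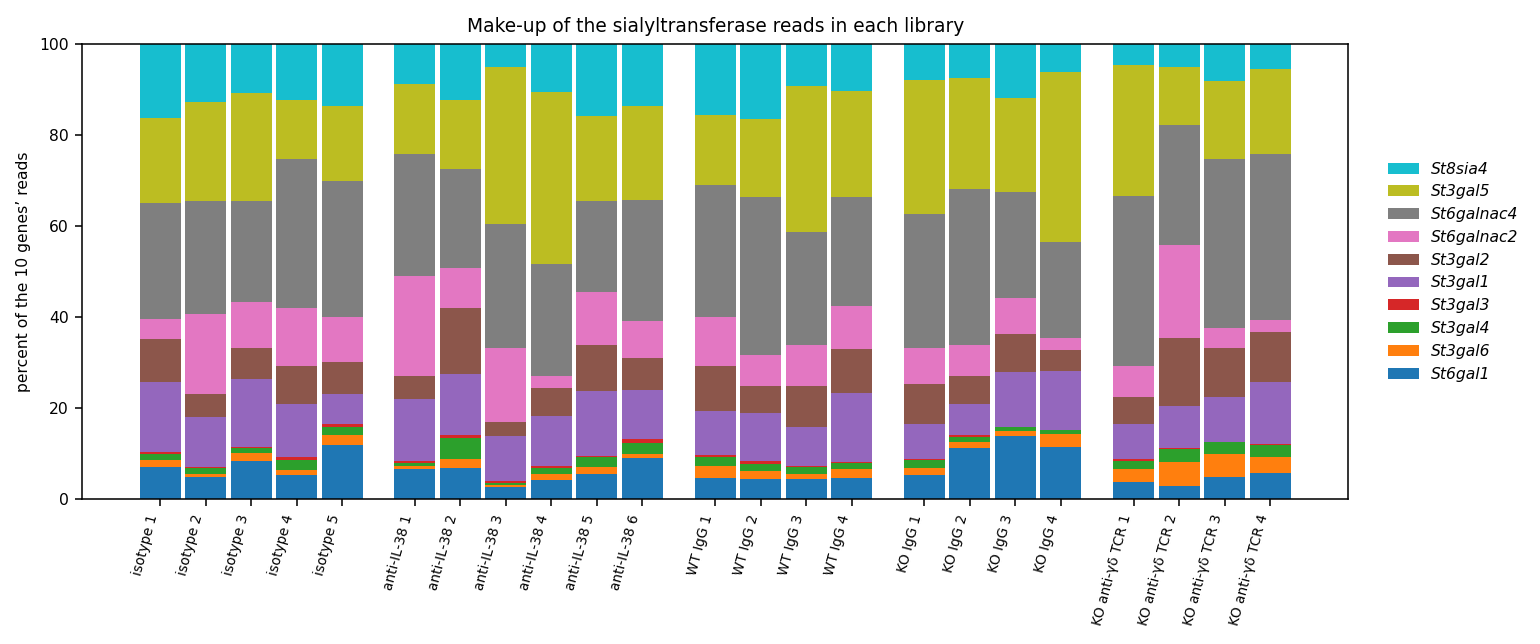
Share of each of the 10 genes in their summed reads (percent, bars stacked to 100) for each of the 23 libraries by group. The St6gal1 share reached 13.8% in KO tumors with IgG against at most 4.76% in WT tumors with IgG, and the St3gal6 share was at least 2.99% in every anti-γδTCR tumor.

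Antibody neutralization of IL-38 asks whether blocking the cytokine in adult mice changes these genes in WT tumors, and it was not among the contrasts named in choosing them. No difference passed the test: limma called 0 of 10, against 0% of 16002 genes, with adjusted p from 0.645 to 0.953. At an unadjusted p of 0.05 it called 0 of 10, against 10.5% of genes, and DESeq2 at an adjusted p of 0.05 called 0 of 10, against 0.469%. Two-sided exact permutation tests over the 462 groupings of 6 and 5 tumors gave p from 0.290 for St3gal1 to 0.905 for St6galnac4, where the smallest possible p was 0.00433. For St6gal1 the log2 fold change was -0.21 ± 0.24 (SE), with a 95% interval of -0.73 to 0.32 and an exact p of 0.489; mean normalized counts were 261 ± 56.7 with anti-IL-38 and 317 ± 141 with isotype (SD, n = 6 and 5). Without isotype replicate 5, the tumor with the highest St6gal1 of its group, the estimate turned to 0.02 ± 0.20 (SE). For St3gal6 it was -0.24 ± 0.36 (SE) with an interval of -1.0 to 0.53, and for St8sia4 -0.13 ± 0.14 (SE) with an interval of -0.44 to 0.17, the narrowest of the 10. St3gal5 had the largest estimate, 0.45 ± 0.37 (SE), with an interval of -0.34 to 1.24, and it rested on anti-IL-38 replicates 3 and 4. Replicate 3 with anti-IL-38 also had the highest St3gal1, St3gal3, St6galnac2 and St6galnac4 and the lowest St3gal6 of all 23 libraries.

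The knockout and the antibody both remove IL-38 signals, and the difference between their effects was fitted over the 4 groups, the KO arm of which had chosen St6gal1. For St6gal1 the knockout effect minus the antibody effect was 1.42 ± 0.38 (SE) on the log2 scale, given without a test. For the other 9 genes it ran from -0.69 for St3gal4 to 0.19 for St3gal6, likewise given without a test since the KO arm is shared. limma called 0 of the 10 genes there, against 0.00612% of 16352, and DESeq2 called St6gal1, against 0.135%. Since the difference holds the contrast that chose St6gal1, nothing is read from that call. When both forms of IL-38 loss were pooled against both control groups, St6gal1 had a log2 fold change of 0.40 ± 0.23 (SE), and the largest among the other 9 was 0.45 ± 0.25 (SE) for St3gal5. That fit had no term for the experiment, so differences between the experiments enter these estimates and their SE. Mean St6gal1 was 317 normalized counts in isotype and 170 in WT tumors with IgG. limma and DESeq2 called 0 of the 10 in the pooled comparison, against 0% and 0.428% of genes.

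The rest of the sialylation pathway was examined as 9 lists of 78 genes, covering the other sialyltransferases, CMP-sialic acid supply, sialidases, sialic acid receptors, makers of the acceptor chains, fucosyltransferases and the proteases that release these enzymes from the Golgi. limma called 0 list genes in any of the 5 comparisons, and adjusted p below are from limma. Of 66 tested between KO and WT, 13 were higher and 3 lower at an unadjusted p of 0.05, with a median log2 fold change of 0.17 against 0.01 for all genes, of which 12.1% passed in either direction. For anti-IL-38 the counts were 7 and 5 of 68 (median 0.08), where 10.5% of all genes passed. For blockade they were 5 and 11 of 68 (median -0.07), where 21.7% of all genes passed, and 9 and 11 of 67 (median -0.09) without replicate 4 of KO with IgG, where 26.2% did. The share of list genes that passed lay near the background under blockade and above it in the other 2 comparisons, a gap that was not tested. St8sia3 and the sialidase gene Neu4 had 0 reads in every library, and St6gal2, the other enzyme of the St6gal1 subfamily, had at most 4 reads.

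In the supply of the donor sugar, Slc35a1, the Golgi transporter of CMP-sialic acid, had the smallest p between KO and WT, at a log2 fold change of 0.52 ± 0.20 (SE), adjusted p = 0.338, and also for anti-IL-38, 0.50 ± 0.18 (SE), adjusted p = 0.425. Among fucosyltransferases, Fut9, which makes Lewis x, was at 1.10 ± 0.30 (SE), adjusted p = 0.238 in KO against WT, and Fut8, which adds core fucose, at 1.01 ± 0.35 (SE), adjusted p = 0.420 with anti-IL-38. Among makers of acceptor chains, the galactosyltransferase gene B4galt3 was at 0.59 ± 0.17 (SE), adjusted p = 0.255, and Galnt1, which starts O-glycans, at 0.66 ± 0.20 (SE), adjusted p = 0.275, both in KO against WT. Of the sialidase and O-acetylation list, Casd1, the sialate O-acetyltransferase, was at 0.42 ± 0.14 (SE), adjusted p = 0.294 there. Of the ganglioside list, B4galt6, a lactosylceramide synthase, was at -0.51 ± 0.23 (SE), adjusted p = 0.400, and among the sialic acid receptors Siglecf was at -1.60 ± 0.79 (SE), adjusted p = 0.437. Siglecf was at -0.57 ± 0.28 (SE) without replicate 4 of KO with IgG. Among the other sialyltransferases St8sia5, which acts on gangliosides, was at 1.36 ± 0.65 (SE), adjusted p = 0.424, and the protease gene Sppl3 was at 0.33 ± 0.16 (SE), adjusted p = 0.437. St8sia5 was at 1.96 ± 0.52 (SE) without that replicate. With anti-IL-38, the receptor gene Cd22 was at -0.52 ± 0.16 (SE), adjusted p = 0.412, and C1galt1, the core 1 synthase that makes the acceptor of St3gal1, at 0.63 ± 0.26 (SE), adjusted p = 0.443.

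Under blockade, the list genes with the smallest p included Mgat4b, which branches N-glycans, at 2.69 ± 0.66 (SE), adjusted p = 0.0657, and Ugcg, which makes the first glycolipid on the way to GM3, at 1.53 ± 0.38 (SE), adjusted p = 0.0657. Renbp, a sialic acid pathway epimerase also named renin-binding protein, was at -1.48 ± 0.36 (SE), adjusted p = 0.0657, Mag, a sialic acid receptor of myelin, at -1.94 ± 0.46 (SE), adjusted p = 0.0657, and Gcnt1, which branches core 2 O-glycans, at -1.29 ± 0.33 (SE), adjusted p = 0.0665. Without replicate 4 of KO with IgG, limma called 4 list genes higher and 8 lower of 67, against 14.3% of all genes. Mgat4b, Ugcg, Galnt1 and B4galt3 were the higher ones, with Mgat4b at 3.50 ± 0.21 (SE), adjusted p = 9.3e-07 and Ugcg at 1.98, and Renbp, Ctsa, Cd22, Cd33, Mag, Siglecf, Mgat2 and Gcnt1 the lower ones. Renbp was then at -1.84, Mag at -2.12 and Gcnt1 at -1.30 on the log2 scale. Of the 4 receptor genes among them, Siglecf was at -4.53 ± 0.70 (SE), adjusted p = 0.00104, and Cd33, a Siglec of myeloid cells, at -2.15 ± 0.35 (SE), adjusted p = 0.00142. By the same fit 4 of 7 macrophage markers fell, with a median log2 fold change of -1.25 over the 7, and their part in the receptor values was not tested. With all KO tumors with IgG kept, their highest values were 353 CPM for Mgat4b and 82.4 CPM for Ugcg. These were the values of replicate 4, the tumor left out of the fit that called both genes. Both lay inside the blockade ranges, 305 to 501 CPM and 75.3 to 100 CPM. Without replicate 4 the library split falls together with the blockade, so their parts in these calls cannot be told apart.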

How the data were processed

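Tumors were dissociated, RNA was isolated with TRIzol and libraries were made with the Lexogen QuantSeq 3′ kit. The authors used the BlueBee QuantSeq pipeline, and the submitters' processing notes name STAR, HTSeq, DESeq2 and GRCm39 without versions or roles. The deposited values are a signal in normalized counts per gene, gene counts that the authors divided by a size factor, in 1 table of 19 libraries and 1 of 8, with the 4 KO libraries with IgG in both and 0 columns unused; the column of replicate 3 with anti-γδTCR is marked rep, and whether it is a repeat run is not stated. Every value was a whole multiple of what 1 read is worth in its library (100% whole within 0.0001% of the read number), so reads were recovered; for 1 WT library that step was near 1. Tests were made within a table, and levels set across tables are CPM of the recovered reads.

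The main test was limma 3.58.1 (empirical Bayes with trend, two-sided) on log2(normalized count + 1), for genes with a mean of at least 5, with Benjamini-Hochberg adjustment over all genes tested. A log2 fold change on this scale understates changes of low genes. edgeR 4.0.16 (quasi-likelihood) and DESeq2 1.42.0 on the recovered reads, other pseudocounts (0.5 and 5), filters (none and 20), TMM rescaling, the experiment as a term, the replicate number as a block and leaving out each library were alternatives, and CPM without Gm42418 was added after seeing the data. The fits were tested on simulated data with known changes. Exact permutation tests used SciPy 1.17.1.

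The 10 genes and all lists were chosen with earlier results of these data known. Named beside them were, of each list and comparison, the genes past an adjusted p of 0.05 or else the 1 with the smallest p (a selection of these is printed), and the 5 genes most alike in pattern to St6gal1 and St3gal6. Of 47643 gene IDs 47224 had a symbol. Gene positions are from GENCODE models of GRCm38 and start windows from RefSeq; no coordinate is from the authors' build. Reads are counted near 3′ ends, so isoforms are not resolved, and intervals for a count of 0 cover counting error only. No source says how the tumors of a group were sampled beyond separate labels, so p-values measure the spread between these samples. The within-group library pairs (43) all differed beyond counting noise. Amino acid sequences were not used here.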

Additional observations from a re-analysis of the deposited data

Results flagged for a closer look

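Of 50 sets of 4 to 6 libraries tested for a value far from the rest, one set per gene and group, 2 held one, and chance gives about 1 in 20. In WT tumors with IgG, St3gal1 was at 48 CPM in replicate 4 and at 32.1 CPM in the next highest. In KO tumors with IgG, St6galnac2 was at 7.89 CPM in replicate 4 and at 25.1 CPM in the next lowest.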

How the results depend on the processing

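Counts of genes called at an adjusted p of 0.05 depended on the test. Pooled inhibition called 0 genes by limma (1725 at an unadjusted p of 0.05), 1 by edgeR, 70 by DESeq2 and 1 with the experiment as a term. Anti-IL-38 called 0 (1682 unadjusted), then 0 by edgeR and 75 by DESeq2, KO against WT 1, then 0 by edgeR and 305 by DESeq2, blockade 0 (3570 unadjusted), then 0 by edgeR and 1036 by DESeq2, and the difference of the 2 effects 1, then 0 by edgeR and 22 by DESeq2. Of the 10 genes DESeq2 called 1, 2 and 1 in the last 3. Leaving out 1 library gave 0 to 23 genes for pooled inhibition (23 without isotype 3), 0 to 6 for anti-IL-38 (6 without isotype 3), 0 to 7 for KO against WT (7 without WT 3 and 7 without KO 4), 0 to 2357 for blockade (2357 without KO 4) and 0 to 2 for the difference (2 without KO 2 and 2 without KO 4), and 0 to 1 and 0 to 3 of the 10 genes in KO against WT (1, St6gal1, without KO 1) and blockade (3 without KO 4). The cause was not tested.

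A replicate block gave 1 gene for anti-IL-38, 0 for KO against WT and 0 for the difference, where St3gal5 became -0.072. Same-numbered libraries did not deviate together (r of their deviations -0.11 to 0.07, 0.02 to 0.07 and -0.17 to 0.02 in the 3 contrasts). A pairing by number was thus not seen, but so few pairs cannot exclude it.

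In the pooled comparison by edgeR and DESeq2, St3gal2 was 0.00068 and 0.0014, St3gal4 0.078 and 0.081 and St6galnac2 0.24 and 0.24, in the difference St3gal5 was -0.33 and -0.31, and under blockade St6galnac2 was 0.11 and 0.14. Leaving out 1 library, the log2 fold changes ran, in the pooled comparison, St3gal2 -0.13 to 0.060, St3gal4 -0.29 to 0.0077, St6galnac2 -0.32 to 0.10, St6galnac4 -0.078 to 0.11; for anti-IL-38, St6gal1 -0.34 to 0.016, St3gal2 -0.049 to 0.18, St3gal4 -0.094 to 0.36, St6galnac2 -0.19 to 0.52, St6galnac4 -0.15 to 0.16; for KO against WT, St3gal1 -0.21 to 0.043, St3gal2 -0.40 to 0.012, St3gal3 -0.45 to 0.46, St3gal6 -0.24 to 0.11, St6galnac4 -0.17 to 0.19; for blockade, St3gal3 -0.80 to 0.068, St6galnac2 -0.70 to 0.31, St6galnac4 -0.042 to 0.30; and for the difference, St3gal3 -0.87 to 0.041, St3gal5 -0.19 to 0.31, St3gal6 -0.032 to 0.39, St6galnac4 -0.23 to 0.17. St3gal3 could not be tested at a mean of at least 20. St6gal1 and St3gal6 kept their direction under every alternative in the contrasts named for them.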
